A study of Mus musculus with 2 samples.

Results

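The Cyp4a genes Cyp4a10, Cyp4a14, Cyp4a31 and Cyp4a32 encode cytochrome P450 enzymes of the mouse liver, and they were taken by symbol from a table of 15348 genes, in which all 4 were listed. They were chosen by their levels in the OTD and control columns of this table, that is by the contrast described here, so their ratios are a description and no test supports them. The livers came from female NOG-TKm30 mice, an immunodeficient NOG strain that carries a mutant (clone 30) thymidine kinase cDNA of herpes simplex virus under the enhancer and promoter of the mouse transthyretin gene, which is active in hepatocytes. The OTD group was given the aromatic amine ortho-toluidine, first at 0.6% (1 week) and later at 0.3% (3 weeks). The control group received 0% over the same 4 weeks. The mice of both groups were 16 weeks old and, by their strain label, all carried the transgene. The RNA of 5 OTD mice was pooled for 1 library and that of 3 control mice for the other, so neither group had a replicate, no spread between mice could be measured and no p-value is given. The labels disagree on the strain, since their treatment text says C57BL and every other field says NOG-TKm30. How the dose was given is not stated in the sources used here.

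Enzymes of the CYP4A family hydroxylate fatty acids at the omega carbon, the methyl end of the chain. Alcohol and aldehyde dehydrogenases then turn the product into a dicarboxylic acid, which peroxisomes shorten by beta-oxidation. Some enzymes of the CYP4A family, though not all, convert arachidonic acid to 20-HETE, a signalling lipid. Whether the genes described here take part in that step was not examined. In mouse liver, Cyp4a10 and Cyp4a14 are classic targets of PPAR-alpha, a nuclear receptor for fatty acids that binds DNA with a retinoid X receptor. Cyp4a12a, another member of the family, is known as the male-predominant form in mice.

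The 4 genes lie within 135.4 kb of chromosome 4 (GRCm38, the assembly of mm10). Cyp4a14 lies on the minus strand at 115486200 to 115496142, Cyp4a10 on the plus strand at 115518264 to 115533649, Cyp4a31 on the plus strand at 115563649 to 115579015 and Cyp4a32 on the plus strand at 115600969 to 115621602. All 4 are annotated as protein-coding. Cyp4a10, Cyp4a31 and Cyp4a32 are near-copies, and Cyp4a14 is the more distant member. Over 1527 coding bases, Cyp4a10 was 97.2% identical to Cyp4a32 and 96.6% identical to Cyp4a31, and only 75.1% identical to Cyp4a14. The exon that ends inside the heme-binding loop shows this difference, and its 77 bases are printed here in the GENCODE M21 transcripts with the bases that differ from Cyp4a10 in capitals. It is exon 11 in each transcript, at chr4:115529442-115529518 (plus strand) in Cyp4a10, chr4:115489789-115489865 (minus strand) in Cyp4a14, chr4:115574890-115574966 (plus strand) in Cyp4a31 and chr4:115614820-115614896 (plus strand) in Cyp4a32.
Cyp4a10: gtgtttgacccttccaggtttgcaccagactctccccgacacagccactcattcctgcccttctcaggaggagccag
Cyp4a14: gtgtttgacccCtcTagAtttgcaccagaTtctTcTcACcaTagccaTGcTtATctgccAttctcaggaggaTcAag
Cyp4a31: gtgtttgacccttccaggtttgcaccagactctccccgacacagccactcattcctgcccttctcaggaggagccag
Cyp4a32: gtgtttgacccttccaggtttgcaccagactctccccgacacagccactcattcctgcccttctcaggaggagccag
Cyp4a14 differed from Cyp4a10 at 17 of these bases, and Cyp4a31 and Cyp4a32 at 0. A read from this exon alone cannot be given to any of the 3 near-copies.

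The near-copies can be told apart elsewhere. Cyp4a10, Cyp4a31 and Cyp4a32 were alike at 1450 of the 1527 coding bases, with a longest identical run of 148 bases, and 77 bases differed in at least 1 of them. The 90-base coding stretch with the most such bases, 13, lies in exon 2, on the plus strand in all 3 genes, and it is printed with the same use of capitals. It lies at chr4:115519630-115519719 in Cyp4a10, chr4:115565010-115565099 in Cyp4a31 and chr4:115602260-115602349 in Cyp4a32.
Cyp4a10: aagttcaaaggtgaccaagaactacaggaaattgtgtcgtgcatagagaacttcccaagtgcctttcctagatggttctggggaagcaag
Cyp4a31: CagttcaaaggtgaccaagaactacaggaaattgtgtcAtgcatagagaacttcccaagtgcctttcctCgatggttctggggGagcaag
Cyp4a32: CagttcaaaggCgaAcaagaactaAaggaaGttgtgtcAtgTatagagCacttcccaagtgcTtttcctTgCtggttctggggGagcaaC
In this stretch Cyp4a32 differed from Cyp4a10 at 13 bases and Cyp4a31 at 4. Of all 50-base stretches of the transcript, 46.8% in Cyp4a32, 30.5% in Cyp4a10 and 21.8% in Cyp4a31 also occurred in the transcript of another gene. Of these shared stretches, 0 in Cyp4a10, 0 in Cyp4a32 and 42 of 536 in Cyp4a31 occurred in a gene outside the 4. For Cyp4a14 the share was 0.245%, and 0 of its stretches occurred in another member. How the authors' counting split reads between the near-copies is not stated there either, so the single values of Cyp4a10, Cyp4a31 and Cyp4a32 are less certain than that of Cyp4a14 and than their sum.

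**Figure D1:**
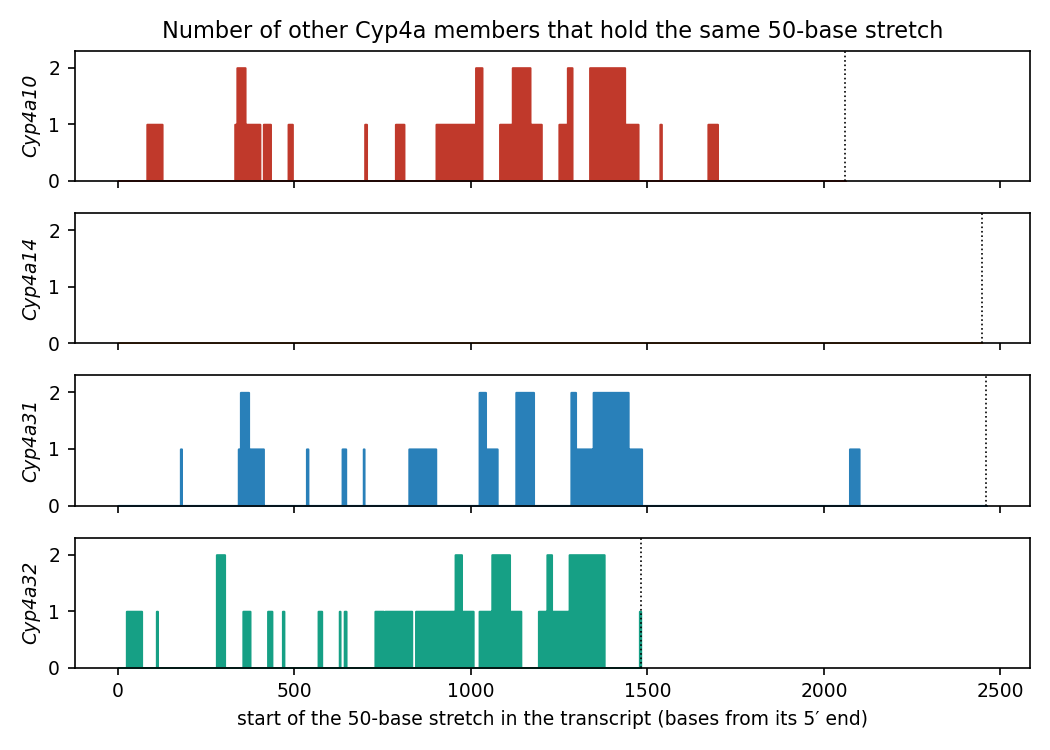
Number of other Cyp4a members (vertical axis, 0 to 2) that hold the same 50-base stretch, by the start of the stretch in each transcript (horizontal axis, bases from its 5′ end; the dotted line marks the last stretch). Cyp4a14 shares none with the others, while the sharing among Cyp4a10, Cyp4a31 and Cyp4a32 lies in blocks and is densest in Cyp4a32.

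The deposited values behaved as CPM (whole reads over the library's total) after division by a factor for each library, and they are called levels here. The OTD library held 14685193 reads and the control library 13569189, and a count of 3 reads came to a level of 0.200 in the OTD library and 0.225 in the control library. The hepatocyte gene Alb took 7.10% of the OTD reads and 8.01% of the control reads, and the ribosomal RNA precursor Rn45s took 2.66% in OTD and 1.47% in control. The transthyretin gene itself, Ttr, stood at a level of 4338 in the OTD library and 4514 in the control library. Fold differences are followed by their 95% interval in brackets (exact Clopper-Pearson, from how a gene's reads divide between the libraries), and the level of 1 library by an exact Poisson interval. Both kinds of interval hold counting error alone, so differences among mice or pools are not in them.

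All 4 Cyp4a genes had lower levels in the OTD pool, and the size of the difference ran from 4.97-fold in Cyp4a14 to 1.36-fold in Cyp4a32. Cyp4a14 had a level of 141.0 in the OTD library (2111 reads), against 701.2 in the control library (9333 reads). Its level was 4.97-fold lower in OTD (4.74 to 5.22), with a log2 ratio of OTD over control of -2.31, for which a pseudocount of 1 was added to each level. This was the lowest log2 ratio of all 7602 genes with a mean level of at least 10 (called measured here). Cyp4a10, the most abundant of the 4, had a level of 446.6 in the OTD library (6686 reads), against 1191 in the control library (15848 reads). Its level was 2.67-fold lower in OTD (2.59 to 2.74), with a log2 ratio of -1.41, which ranked 3 from the lowest. Between them stood only G0s2, an inhibitor of lipolysis, with a log2 ratio of -1.81.

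The near-copies of Cyp4a10 differed by less. Cyp4a32 had a level of 54.2 in the OTD library (812 reads), against 73.8 in the control library (982 reads). It was 1.36-fold lower in OTD (1.24 to 1.49), with a log2 ratio of -0.44, which ranked 164 from the lowest of the measured genes. Cyp4a31 had a level of 3.01 in the OTD library (45 reads), against 5.41 in the control library (72 reads). Its mean level was 4.21, under the minimum of 10, so it had no rank. It was 1.80-fold lower in OTD, and the few reads behind it left an interval from 1.22 to 2.67, which overlapped those of Cyp4a10 and Cyp4a32 but not that of Cyp4a14. The other 3 genes passed the minimum.

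**Figure D2:**
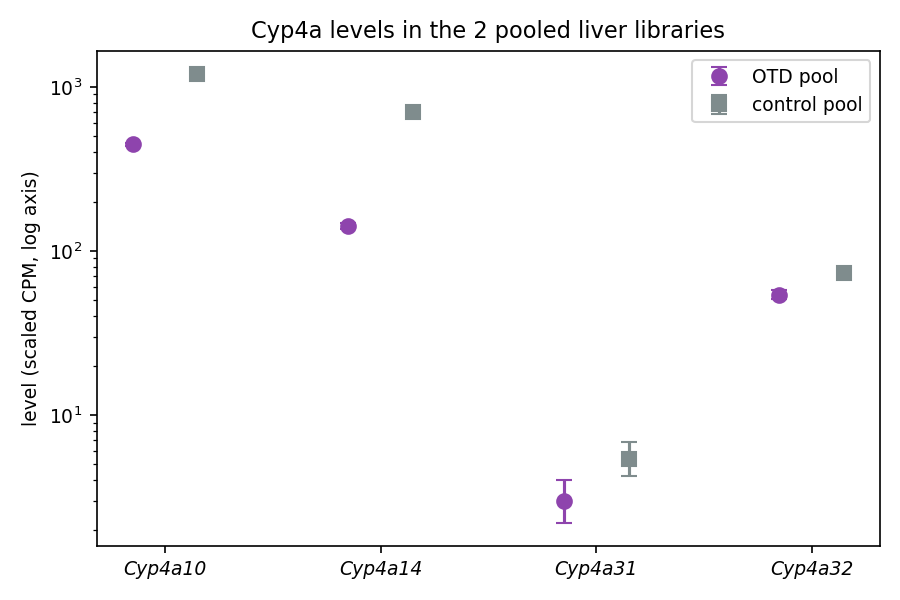
Level of each Cyp4a gene (vertical log axis, scaled CPM) in the OTD pool of 5 mice (circles) and the control pool of 3 mice (squares), with exact 95% Poisson intervals that cover counting error only and are mostly smaller than the symbols. Cyp4a14 shows the widest gap, with 141.0 in OTD and 701.2 in control, and Cyp4a32 a narrow one, with 54.2 in OTD and 73.8 in control.

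Such differences were rare in these libraries. A log2 ratio of -1 or below, that is at least 2-fold lower in OTD, was found in 16 of the 7602 measured genes, or 0.210%, and Cyp4a14 and Cyp4a10 were 2 of the 16. A further 16 genes (0.210%) were at least 2-fold higher. The log2 ratio of all measured genes had a median of -0.0063 and a standard deviation across genes of 0.24, and 97.6% of them lay within 1.5-fold. At 1.5-fold lower the count was 69 genes (0.908%), again with Cyp4a14 and Cyp4a10 and without Cyp4a32. Since the 4 genes were chosen for this difference, these counts are no evidence about them.

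**Figure D3:**
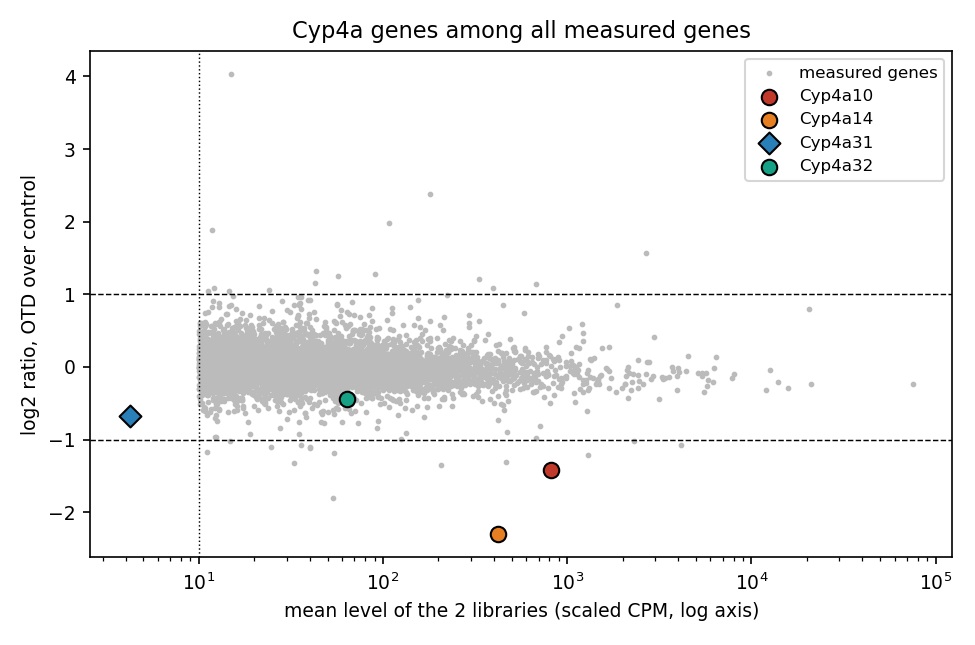
Log2 ratio of OTD over control (vertical axis) against the mean level of both libraries (horizontal log axis, scaled CPM) for the 7602 measured genes in grey and the Cyp4a genes in colour, with 2-fold marked by dashed lines and the minimum mean level by the dotted line. Cyp4a14 is the lowest point of the plot, Cyp4a32 lies at the lower edge of the cloud and Cyp4a31 (diamond) lies under the minimum.

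Added together, the 4 genes had a level of 644.9 in the OTD library (9654 reads) and 1971 in the control library (26235 reads), 3.06-fold lower in OTD (2.99 to 3.13). The sum of the 3 near-copies was 503.9 in the OTD library and 1270 in the control library, 2.52-fold lower in OTD (2.45 to 2.59). Splitting shared reads among the 3 leaves this sum unchanged, but it would change if such reads were dropped or given to other genes. Cyp4a10 made up 56.1% of the difference in the summed level, Cyp4a14 42.2%, Cyp4a32 1.47% and Cyp4a31 0.181%.

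The mixture of Cyp4a transcripts also differed between the pools. Cyp4a14 held 21.9% of the summed Cyp4a reads in the OTD library (21.0% to 22.7%, exact binomial), against 35.6% in the control library (35.0% to 36.2%). Cyp4a10 held 69.3% in the OTD library (68.3% to 70.2%), against 60.4% in the control library (59.8% to 61.0%). Cyp4a32 held 8.41% in the OTD library (7.86% to 8.98%), against 3.74% in the control library (3.52% to 3.98%). Cyp4a31 stayed under 1% in each, with 0.466% in the OTD library (0.340% to 0.623%) and 0.274% in the control library (0.215% to 0.345%). There were 3.17 Cyp4a10 reads for each Cyp4a14 read in the OTD library and 1.70 in the control library, a ratio of ratios of 1.87 (1.77 to 1.97), and 8.23 Cyp4a10 reads for each Cyp4a32 read in the OTD library and 16.1 in the control library, a ratio of ratios of 0.510 (0.463 to 0.562). The scaling between libraries cancels in these 2 comparisons. Their intervals are normal approximations on the log scale, not exact ones, and hold counting error alone. The comparison with Cyp4a32 also depends on how reads were split between the near-copies, which its interval does not hold.

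Levels of different genes can be set side by side only per length. On a scale of reads per kilobase of the longest annotated transcript, scaled to a common total of 1e+06 over the 14706 genes with a length, Cyp4a10 had 530.5 in the OTD library and 1321 in the control library. Cyp4a14 had 141.5 in the OTD library and 657.1 in the control library, Cyp4a32 had 88.8 in OTD and 112.8 in control, and Cyp4a31 had 3.00 in OTD and 5.04 in control. The order was Cyp4a10, Cyp4a14, Cyp4a32 and Cyp4a31 in each library, and the exact Poisson intervals of neighbours in that order did not overlap. The step between Cyp4a14 and Cyp4a32 was narrow in the OTD library, with intervals of 135.6 to 147.7 and 82.8 to 95.1. By this scale Cyp4a10 ranked 257 of these genes in the OTD library and 90 in the control library, and Cyp4a14 ranked 882 in the OTD library and 195 in the control library. The annotated Cyp4a32 transcript of 1530 bases holds almost no sequence outside the coding part of 1527 bases, while that of Cyp4a10 has 2109 bases, Cyp4a14 2496 and Cyp4a31 2509. If the true Cyp4a32 transcript is longer and reads from its untranslated ends were counted, this length raises its value per length. If such reads were not counted, its read count and its share of the summed reads are too low instead. The annotation used for the counts is not known here.

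As counted, the ratios followed the order of the genes along the chromosome. From Cyp4a14 onward, the ratio of OTD to control was 0.201 (0.192 to 0.211) in Cyp4a14, 0.375 (0.364 to 0.386) in Cyp4a10, 0.556 (0.374 to 0.818) in Cyp4a31 and 0.735 (0.669 to 0.808) in Cyp4a32. The interval of Cyp4a31 overlapped those of both its neighbours, so its place in this order is not fixed by its reads. The ratios of Cyp4a10, Cyp4a31 and Cyp4a32 also depend on how reads were split among these near-copies, which is not known here. No interval holds this, so a graded difference along the chromosome is not established. Cyp4b1, the next P450 gene, had a level of 14.5 in each library and a ratio of 1.00 (0.820 to 1.22). On the far side of Cyp4a14, the male-predominant Cyp4a12a had 4 reads in the OTD library and 0 in the control library, which allows a level of up to 0.225, and Cyp4a12b had 1 read in each. Beyond Cyp4b1, Efcab14, Atpaf1 and Mknk1 had ratios of 1.09 (0.955 to 1.26), 1.13 (0.926 to 1.38) and 1.17 (0.948 to 1.45), and Mob3c had 0.768 (0.625 to 0.944). The window reached 250 kb to each side of the 4 genes, and 7 other genes in it were listed, 5 of them measured.

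**Figure D4:**
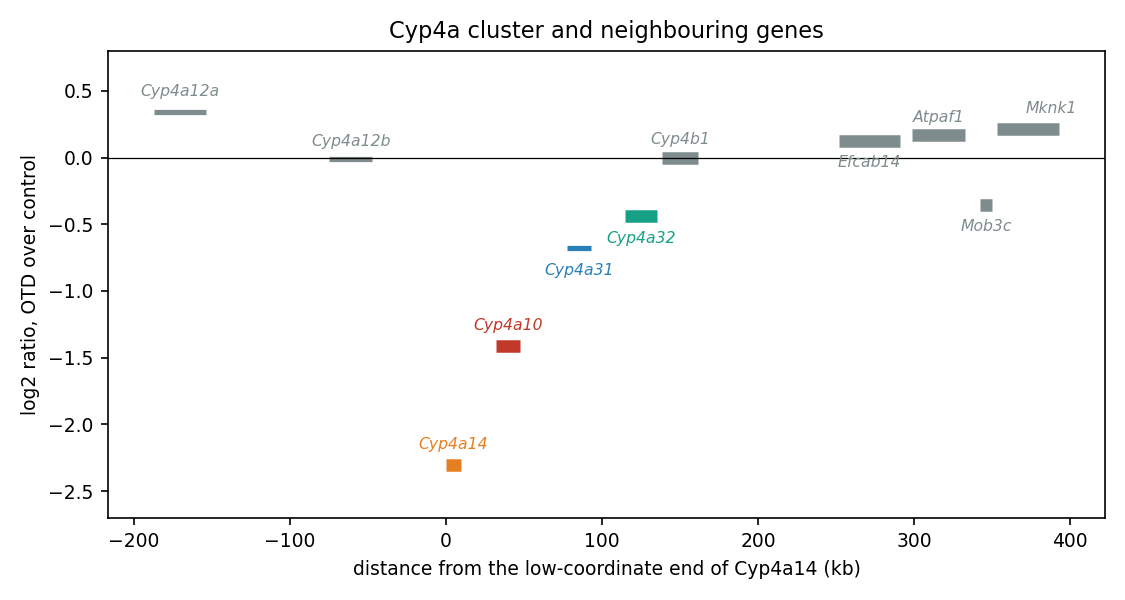
Log2 ratio of OTD over control (vertical axis, pseudocount of 1) by position (horizontal axis, distance in kb from the low-coordinate end of Cyp4a14), each bar spanning 1 gene, with thick bars for measured genes and thin bars for genes under the minimum mean level. As counted, the 4 Cyp4a genes step up from -2.31 in Cyp4a14 to -0.44 in Cyp4a32, and Cyp4b1 beside them lies at 0. The steps among Cyp4a10, Cyp4a31 and Cyp4a32 depend on how reads were split among them. The thin bar of Cyp4a12a rests on 4 reads.

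The other measured Cyp4 genes were closer to equal between the pools than Cyp4a14 and Cyp4a10, while the intervals of Cyp4f15 and Cyp4v3 overlapped that of Cyp4a32. Of 20 listed other Cyp4 genes, 11 were in the table and 6 were measured, at a median log2 ratio of -0.040, 0 of the 6 at least 2-fold lower and 4 below 0, where 51.6% of all measured genes were below 0. Scaled to the same total of reads, the median was 0.013. Cyp4f14, which hydroxylates leukotriene B4 in mice, had a level of 393.8 in the OTD library and 351.7 in the control library, 1.12 times the control level (1.08 to 1.16). Cyp4f15 had 137.6 in the OTD library and 169.9 in the control library, a ratio of 0.810 (0.762 to 0.860). Cyp4v3, a fatty acid omega-hydroxylase, had 300.1 in the OTD library and 359.0 in the control library, a ratio of 0.836 (0.802 to 0.871). The 7 listed Cyp4f genes summed to 624.3 in the OTD library and 619.3 in the control library, a ratio of 1.01 (0.979 to 1.04). Set beside these sums, which are of levels not divided by length, the 4 Cyp4a genes summed to 644.9 in the OTD library and 1971 in the control library.

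Cytochromes P450 of the endoplasmic reticulum take their electrons from cytochrome P450 reductase (Por) and cytochrome b5. The genes listed for these donors and related proteins lay on both sides of equal levels. Por had a level of 399.7 in the OTD library and 553.7 in the control library, a ratio of 0.722 (0.698 to 0.747). Cyb5b, the outer mitochondrial form of cytochrome b5, had 554.6 in the OTD library and 426.4 in the control library, a ratio of 1.30 (1.26 to 1.35). Cyb5a, the most abundant of the list, lay nearer to equal, with 741.0 in OTD and 667.4 in control, a ratio of 1.11 (1.08 to 1.14). Cyb5r3 had a ratio of 1.09 (1.05 to 1.14). Of 5 listed genes 4 were measured, with a median log2 ratio of 0.14. Por was the 1 below 0, at -0.47, close to the -0.44 of Cyp4a32.

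The genes that act after omega-hydroxylation were mostly lower in the OTD pool, but none by 2-fold. Of 19 listed, 18 were in the table and 17 measured, with a median log2 ratio of -0.26. Scaled to the same total of reads 13 were below 0, and as deposited 14 were, beside 51.6% of all measured genes. The 3 above 0 were the alcohol dehydrogenases Adh1, Adh4 and Adh5, which can oxidise the omega-hydroxyl group. Adh1 had a level of 1414 in the OTD library and 1021 in the control library, a ratio of 1.39 (1.36 to 1.42), Adh4 had 107.5 in OTD and 81.4 in control, a ratio of 1.32 (1.22 to 1.43), and Adh5 had a ratio of 1.02 (0.974 to 1.07). Aldh3a2, the fatty aldehyde dehydrogenase of the next step, had 511.9 in the OTD library and 587.7 in the control library, a ratio of 0.871 (0.844 to 0.899). Slc27a2, which activates very long-chain fatty acids with coenzyme A, had 1013 in the OTD library and 1541 in the control library, a ratio of 0.657 (0.644 to 0.671), the lowest of the list. Among the peroxisomal enzymes, Ehhadh, the bifunctional enzyme needed for dicarboxylic acids, had 919.3 in the OTD library and 1286 in the control library, a ratio of 0.715 (0.699 to 0.731). Each of these 17 ratios was nearer to 1 than those of Cyp4a14 and Cyp4a10. The ratio of Cyp4a31, 0.556, was lower than each too, but its interval (0.374 to 0.818) held the ratios of Slc27a2 and Ehhadh, among others. Cyp4a32, with a ratio of 0.735, lay within the range of the list.

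Among other known PPAR-alpha targets, all 37 measured of 40 listed had log2 ratios below 0, with a median of -0.37, beside 51.6% of all measured genes below 0 and a median of -0.0063. Scaling to the same total of reads put 1 of the 37 above 0. At least 2-fold lower were 4 of the 37, beside 0.210% of all measured genes. The count was 2 of 37 with a pseudocount of 10 and 2 of 33 at a mean level of at least 50. This list was written with earlier results of these data known, and 7 of its genes are also on the list of steps after omega-hydroxylation, so it is no independent evidence of a direction. G0s2 had a level of 23.2 in the OTD library and 83.9 in the control library, 3.61-fold lower in OTD (3.20 to 4.08). Plin5, a lipid droplet coat protein, had 32.9 in the OTD library and 76.0 in the control library, 2.31-fold lower (2.07 to 2.57), Vnn1, a pantetheinase, had 15.2 in OTD and 34.0 in control, 2.23-fold lower (1.90 to 2.63), and Pex11a, a peroxisome proliferation factor, had 22.6 in OTD and 48.8 in control, 2.16-fold lower (1.89 to 2.47). Cyp4a14 and Cyp4a10 thus lay well beyond the median of these targets, and the log2 ratio of Cyp4a32, -0.44, lay near it.

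**Figure D5:**
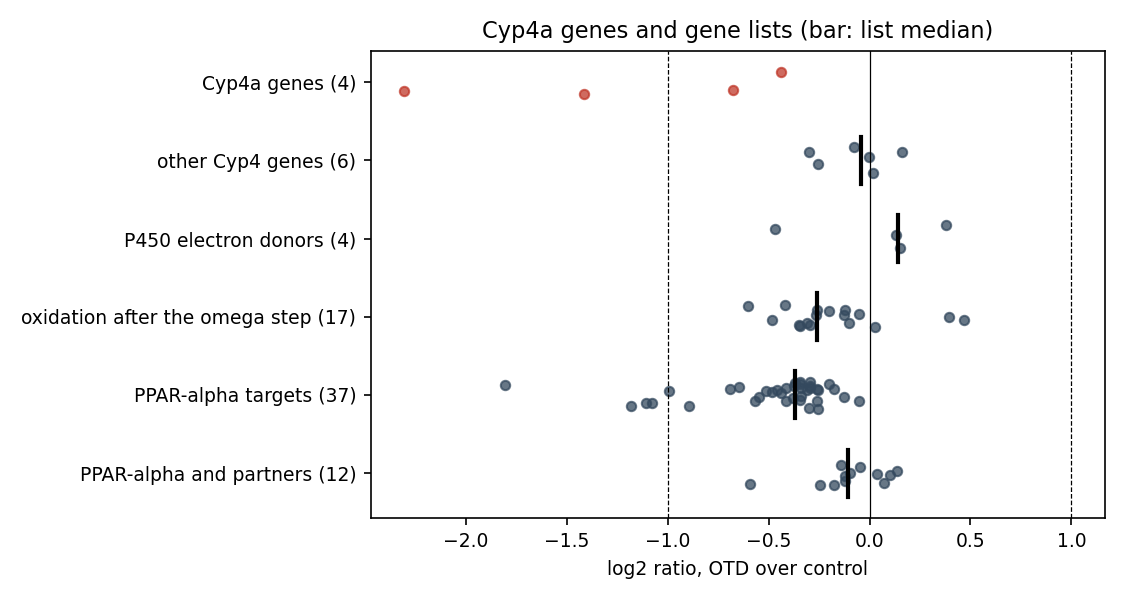
Log2 ratio of OTD over control (horizontal axis, pseudocount of 1) of the 4 Cyp4a genes (red, Cyp4a31 included although its mean level is under 10) and of the measured genes of each list (number in brackets), with a black bar at each list's median and dashed lines at 2-fold. The targets of PPAR-alpha lie left of 0, with a median of -0.37, while the other Cyp4 genes lie around 0.

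Ppara and Rxra themselves lay nearer to equal levels than the median target, and Lpin1 lay beyond it. Ppara had a level of 321.0 in the OTD library and 381.1 in the control library, a ratio of 0.842 (0.809 to 0.876), and Rxra, its partner receptor, had 453.3 in OTD and 493.8 in control, a ratio of 0.918 (0.887 to 0.950). Lpin1, a coactivator of PPAR-alpha and phosphatidate phosphatase, had 362.2 in the OTD library and 547.5 in the control library, a ratio of 0.662 (0.639 to 0.685). Of 14 listed, 12 were measured, with a median log2 ratio of -0.11 and 0 at least 2-fold lower. Below 0 were 8 of the 12, beside 51.6% of all measured genes, and 7 when scaled to the same total of reads.

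The genes most like the Cyp4a genes over the 2 libraries were sought by the distance of their log2 ratio from -1.05, the median of the 4, which lies midway between Cyp4a10 and Cyp4a31. The nearest 5 measured named genes were Mup9 (-1.02), Axin2 (-1.02), Mup10 (-1.07), Pex11a (-1.08) and Acot1 (-0.99). With 2 libraries this likeness says only that the ratios were close. Without Cyp4a31, which was under the minimum level, the median is -1.41, and the genes nearest to it, named after their values were seen, are A1bg (-1.35), Nr1d1 (-1.32) and Mup17 (-1.30). Mup9 and Mup10 encode major urinary proteins, Axin2 a Wnt target that marks hepatocytes around the central vein, and Acot1 an acyl-CoA thioesterase that PPAR-alpha controls. Axin2 had a level of 9.42 in the OTD library and 20.1 in the control library.

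In these pooled bulk samples fewer cells of a type and less RNA per cell cannot be told apart. The hepatocyte markers summed to 97828 in the OTD library and 110674 in the control library. Alb alone gave 69694 of this in OTD and 81661 in control. Of 9 measured hepatocyte markers 7 were below 0, beside 51.6% of all measured genes. Pericentral hepatocyte markers summed to 7785 in OTD and 9198 in control, with 6 of 9 measured below 0 and a median log2 ratio of -0.34. Periportal markers summed to 8453 in the OTD library and 8937 in the control library, with a median log2 ratio of -0.053. Kupffer cell markers summed to 403.1 in the OTD library and 437.6 in the control library, sinusoidal endothelial markers to 508.2 in OTD and 536.3 in control, and stellate cell markers to 731.0 in OTD and 757.2 in control. Cholangiocyte markers summed to 73.5 in OTD and 68.7 in control, and erythroid markers to 389.8 in OTD and 311.9 in control. Much of the erythroid difference was Hba-a2, with 142.2 in OTD and 80.6 in control. Hba-a1, Hbb-bt and Alas2 had ratios of 1.07, 1.05 and 1.06. Against these, the summed level of the 4 Cyp4a genes in the OTD pool was 0.327 times that in the control pool (0.320 to 0.335). Below 0 were 8 of 8 measured Kupffer cell, 5 of 8 sinusoidal endothelial, 5 of 7 stellate cell, 2 of 4 cholangiocyte, 0 of 4 erythroid and 8 of 10 periportal markers. Scaled to the same total without Rn45s, 6 of 8 Kupffer cell, 3 of 8 sinusoidal endothelial, 3 of 7 stellate cell, 4 of 10 periportal and 5 of 9 hepatocyte markers were below 0, and the periportal median was 0.020. None of the listed markers in the table was at 0 in either library. Their part in the Cyp4a differences was not tested.

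A promoter sequence in the RefSeq tables (GRCm38.p6, 250 bases before to 50 after the start) matched Cyp4a32 of the 4 genes. Its window held no DR1, the repeat of 2 AGGTCA units 1 base apart that PPAR-alpha and its partner bind, on either strand with at most 2 mismatches in the 12 fixed letters, against 3.86% of 32851 windows that held one. With at most 3 mismatches the window did hold one, as did 24.7% of windows. A single AGGTCA was absent too (held by 16.3% of windows), and TATAAA was present (held by 13.6%). These letters in this window say nothing of binding.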

How the data were processed

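The authors' deposited signal, 1 normalized value per gene symbol and library, was used as deposited, each column being given to the group that its name shows (Ctrl or OTD). The names also carry Wild and the prefixes G1 and G3, which no label explains. The submitters' processing notes name the tools edgeR, RSEM, Bowtie2 and Trimmomatic 0.38 and the build mm10, without their roles. Per the labels' protocols, each library was made from 200 ng of total RNA with ribosomal RNA depletion and a strand-keeping kit. Divided by the smallest value above 0 of its column, 100% of the values came out whole (tolerance 1e-06) and gave the reads (14685193 OTD, 13569189 control). With 1 library per group no count test could be run.

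The 4 members, the gene lists and the rules were chosen with earlier results of these data known. Named genes were the members, other Cyp4a genes, up to 4 largest ratios and the most abundant gene of each list, Ppara and Rxra, the 5 nearest genes, genes within 250 kb, and Rn45s, Ttr and Alb. Some genes that this rule takes are left out of the text. GENCODE M21 (GRCm38) gave coordinates, transcripts and lengths for 14706 symbols (95.8%). Coding sequences were aligned globally. The interval method was tried on reads simulated with counting noise alone, which is the noise it assumes. This does not check it against differences among mice or pools. The software was biopython 1.88, matplotlib 3.10.9, scipy 1.17.1, pandas 2.3.3, numpy 2.4.6 and Python 3.11.15. Alternatives were other scalings, pseudocounts, filters, sums, lengths and mismatch limits.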

Additional observations from a re-analysis of the deposited data

How the results depend on the processing

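No paired analysis was possible because each group had 1 library, and no replicate could be left out. All 4 Cyp4a genes and their sum stayed lower in OTD under each of the 4 scalings tried, which moved every log2 ratio by at most 0.073. Scaling to the same total of reads moved the ratio of OTD to control beyond its counting interval to 0.390 for Cyp4a10 and 0.340 for the sum. Leaving Rn45s out of that total gave 0.395 for Cyp4a10, 0.212 for Cyp4a14 and 0.344 for the sum. The sum without Cyp4a14 had a ratio of 0.397. The count of 16 genes at least 2-fold lower became 10 with a pseudocount of 10, 9 where the mean level had to reach 50 and 26 with no filter, and the 16 higher became 8 and 44 under these filters. Of the PPAR-alpha targets, 2 of 37 were at least 2-fold lower with a pseudocount of 10 and 2 of 33 at a mean level of at least 50. On the list of PPAR-alpha and its partners, 5 of 8 genes at that mean level were below 0, beside 8 of 12 in the main setting. Per kilobase, the shares of the summed Cyp4a reads were 63.0% for Cyp4a10 in control, 18.5% in OTD and 31.4% in control for Cyp4a14, and 11.6% in OTD and 5.38% in control for Cyp4a32. With at most 3 mismatches, 24.7% of promoter windows held the spaced repeat, that of Cyp4a32 among them. Stretches of 150 bases, chosen after seeing the data, were shared for 7.97% in Cyp4a32, 4.34% in Cyp4a10, 4.20% in Cyp4a31 and 0% in Cyp4a14. At 45 and 72 reads the depth limits what can be said of Cyp4a31.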
